A study of Homo sapiens with 54 samples.

Results

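The 10 genes described here encode secreted inflammatory signals: the chemokines *CXCL1*, *CXCL2*, *CXCL3*, *CXCL5*, *CCL2* and *CCL20*, and the cytokines *IL1A*, *IL1B*, *IL6* and *LIF*. They were taken by name, as 10 of the 55906 gene entries measured in each of 4 human cell lines. Polyadenylated RNA was sequenced from 54 libraries in 18 groups of 3 replicates, and gene levels were given as TPM, a length-corrected share of a library's transcripts on a fixed scale. The study asked how the splicing regulators *TRA2A* and *TRA2B*, a pair of closely related paralogs, cover for each other in lines that depend on *TRA2A* (NCI-H23, LN319) and lines that do not (A549, LN229). In the lung adenocarcinoma lines A549 and NCI-H23, all of which carried the CRISPR interference repressor Zim3-dCas9, a control guide (Control KD), a *TRA2A* guide (TRA2A KD), a *TRA2B* guide (TRA2B KD) or a pair of guides (TRA2A/B DKD) had been delivered by lentivirus 5 days before collection. In the glioblastoma lines LN229 and LN319, Cas9 and guides had been delivered 7 days before collection to cells overexpressing luciferase (Luc Control KO, Luc TRA2A KO, Luc TRA2B KO) or *TRA2B* (TRA2B-OE Control KO, TRA2B-OE TRA2A KO). Every group, controls included, therefore carried a nuclease or repressor and a lentiviral guide, and the glioma groups carried an overexpression construct as well. The knockdowns and knockouts were measured in transduced, drug-selected populations, so each library may average cells with different degrees of loss.

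Chemokines are small secreted proteins that draw leukocytes along a concentration gradient. The CXC chemokines with an ELR motif (*CXCL1*, *CXCL2*, *CXCL3*, *CXCL5*) attract neutrophils through CXCR2, *CCL2* attracts monocytes through CCR2 and *CCL20* attracts CCR6-bearing lymphocytes and dendritic cells. *IL1A* and *IL1B* signal through the IL-1 receptor to NF-kB, whereas *IL6* and *LIF* signal through receptors that share gp130 to STAT3, and many tumour cell lines transcribe several of these genes without added stimulus.

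The promoters of several of these genes are shown because the genes differ in their levels between lines while sharing a short sequence just ahead of the start. Windows of 250 bases before the annotated start were taken from RefSeq (GRCh38.p14), which gave a window for 8 of the 10 genes; *CCL2* and *LIF* had none in the table used. The windows were searched on both strands for GGG and TTTCC separated by any 2 bases, a form of the NF-kB binding motif whose letters were chosen after the promoters had been seen, and no other motif was searched. It was present in 6 of the 8 genes (75.0%), against 578 of 27305 genes with a window (2.12%). In the sequences, written 5′ to 3′ on the strand of the gene, capitals mark the match. *CXCL1* and *CXCL2* are shown as near copies, *CXCL5* as a gene that holds the same 10 letters but was detected in 1 line, and *CCL20* and *IL6* as genes outside the cluster.
CXCL1, chr4:73869143-73869392, plus strand: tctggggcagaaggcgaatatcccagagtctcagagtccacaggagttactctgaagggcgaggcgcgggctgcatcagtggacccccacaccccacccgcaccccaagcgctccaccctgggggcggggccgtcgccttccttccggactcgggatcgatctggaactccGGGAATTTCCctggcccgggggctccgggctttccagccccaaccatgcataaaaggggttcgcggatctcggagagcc
CXCL2, chr4:74099196-74099445, minus strand: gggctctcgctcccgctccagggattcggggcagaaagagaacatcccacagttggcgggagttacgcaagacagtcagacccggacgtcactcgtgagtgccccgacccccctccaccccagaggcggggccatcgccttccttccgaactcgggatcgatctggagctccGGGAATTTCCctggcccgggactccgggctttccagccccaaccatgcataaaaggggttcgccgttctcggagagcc
CXCL5, chr4:73998678-73998927, minus strand: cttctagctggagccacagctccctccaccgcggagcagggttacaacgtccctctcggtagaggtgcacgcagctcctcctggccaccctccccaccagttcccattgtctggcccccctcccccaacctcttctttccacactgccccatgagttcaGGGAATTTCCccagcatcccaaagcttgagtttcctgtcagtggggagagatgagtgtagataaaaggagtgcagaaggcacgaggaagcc
CCL20, chr2:227813592-227813841, plus strand: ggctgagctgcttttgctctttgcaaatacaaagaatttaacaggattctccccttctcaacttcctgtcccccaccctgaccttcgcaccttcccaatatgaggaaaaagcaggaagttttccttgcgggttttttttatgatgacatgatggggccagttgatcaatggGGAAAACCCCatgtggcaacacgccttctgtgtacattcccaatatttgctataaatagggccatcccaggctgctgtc
IL6, chr7:22726950-22727199, plus strand: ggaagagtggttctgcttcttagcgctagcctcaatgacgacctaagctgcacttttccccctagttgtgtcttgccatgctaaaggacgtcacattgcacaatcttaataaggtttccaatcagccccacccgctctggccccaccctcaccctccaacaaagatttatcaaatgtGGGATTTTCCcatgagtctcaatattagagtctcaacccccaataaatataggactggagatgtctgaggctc

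The match ran from 79 to 70 bases before the start in *CXCL1* and *CXCL3*, from 78 to 69 in *CXCL2* and from 91 to 82 in *CXCL5*, with the letters GGGAATTTCC in all 4 genes. In *IL6* it read GGGATTTTCC at 73 to 64 bases, and in *CCL20* it read GGGGTTTTCC on the opposite strand at 79 to 70 bases. The windows of *IL1A* and *IL1B* did not hold these letters. The 4 CXC genes lie on chromosome 4 (*CXCL1* at 73869393-73871308, *CXCL5* at 73995642-73998677, *CXCL3* at 74036589-74038689, *CXCL2* at 74097040-74099195), and *IL1A* and *IL1B* are neighbours on chromosome 2 (112773925-112784493 and 112829751-112836779). *CCL20* lies elsewhere on chromosome 2 (227813842-227817556), *IL6* on chromosome 7 (22727200-22731998), *CCL2* on chromosome 17 (34255285-34257203) and *LIF* on chromosome 22 (30240453-30246759).

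The 3′ untranslated regions of these transcripts all held at least 1 copy of the pentamer ATTTA, the core of AU-rich elements that mark short-lived mRNAs, as did 67.5% of all genes. *IL6* had 6 copies (14.1 per kb) and *CXCL2* 10 copies (13.97 per kb), which placed them at percentiles 99.5 and 99.4 of 19527 genes, for which the median was 1.5 per kb. By count they stood out less: 24.4% of genes had at least 6 copies and 12.7% at least 10. Their untranslated regions were 425 and 716 bases long, against a median of 1065. *CXCL3* (10.4 per kb), *IL1B* (9.84), *CXCL1* (7.77), *CCL20* (6.34), *CXCL5* (5.51) and *IL1A* (4.38) lay at percentiles 87.3 to 98.8. *CCL2* (2.66 per kb) and *LIF* (2.19 per kb) were nearer the middle, at percentiles 68.6 and 61.4. Transcripts of the CXC cluster also share sequence with each other: 21.7% of the 31-base words of *CXCL2* and 14.4% of those of *CXCL1* occur in another gene of the cluster, so the split of reads between *CXCL1*, *CXCL2* and *CXCL3* is uncertain.

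The TPM sums were 928908 to 964610 per library, and mitochondrial transcripts took 6.02% to 33.4%. One library stood apart: A549 Control KD replicate 3 had the lowest sum and the lowest median correlation with the other libraries of its line (0.837, against 0.872 or more for the other A549 libraries). Several A549 results are also given without it, but not all. The single-knockdown values of *CXCL3* and *CXCL5* and the results of the A549 gene lists are given only with it. *TRA2A* and *TRA2B* fell to 9.56% and 9.68% of control in the A549 single knockdowns and to 6.54% and 10.6% in those of NCI-H23, whereas the double knockdown of A549 left 13.9% and 16.3% and that of NCI-H23 left 20.5% and 25.2%. In the knockouts the transcripts were at 62.9% (*TRA2A*) and 66.0% (*TRA2B*) of control in LN229 and at 33.2% and 35.1% in LN319, and *TRA2B* overexpression gave 374% and 873% of the luciferase control. Within the *TRA2B*-overexpressing cells the *TRA2A* knockout left *TRA2A* at 87.2% of its own control in LN229, which did not pass (limma adjusted p = 0.0680), and at 52.8% in LN319. These are shares of transcript, not of protein, and the paper checked its knockdowns and knockouts by immunoblot. Keratins *KRT8* and *KRT18* were abundant in both lung lines, but *KRT19* was at most 0.604 TPM and *EPCAM* at most 1.74 TPM in NCI-H23. *SOX2* and *VIM* were present in both glioma lines, whereas *OLIG2* was at most 0.140 TPM in LN319. *VIM* was also 834.7 to 1196 TPM in A549. The 6 epithelial markers summed to 142.5 to 205.9 TPM in LN229 Luc Control KO and to 357 to 366.4 TPM in LN319 Luc Control KO. Presence of these markers alone therefore does not separate the lung lines from the glioma lines. The labels do not say that replicates came from separate cultures, so p-values measure the spread between these libraries, which may be technical, and read depth is unknown because TPM keeps no counts.

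Each line expressed a different subset of the 10 genes. The highest medians in A549 were those of *CCL2*, *CXCL5* and *LIF*, in NCI-H23 those of *LIF*, *CXCL2* and *CXCL1*, in LN229 those of *CCL2*, *LIF* and *CXCL1*, and in LN319 that of *CCL2*. *CXCL5* was 48.9 to 89.1 TPM in A549 and at most 0.0516 TPM in any other library. *CXCL1* had a median of 20.8 TPM in A549, 50.3 in NCI-H23 and 71.8 in LN229, and was listed at 0 in 14 of 15 LN319 libraries. *CXCL2* in A549 (2.44 to 37.8 TPM) overlapped *CXCL2* in NCI-H23 (29.7 to 74.1 TPM) and stayed at or below 0.393 TPM in both glioma lines. *CXCL3* was low wherever it was found, with medians of 3.71 TPM in A549, 3.12 in NCI-H23 and 6.20 in LN229.

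The order for *CCL2* was LN319 (940.4 to 2419 TPM), LN229 (128 to 258 TPM), A549 (29.8 to 110.6 TPM) and NCI-H23 (2.603 to 13.9 TPM), with no overlap between neighbours. *CCL20* was highest in NCI-H23 (14.1 to 45.8 TPM), whereas LN229 (1.26 to 3.997 TPM) and LN319 (1.04 to 5.46 TPM) overlapped, and 1 of 12 A549 libraries reached 1 TPM. *IL1B* was found in LN229 (6.57 to 19.2 TPM) and LN319 (3.88 to 14.8 TPM), which overlapped, and did not exceed 0.516 TPM in the A549 libraries or 0.104 TPM in those of NCI-H23. *IL1A* was 4.10 to 9.53 TPM in LN229 and 0.378 to 1.60 TPM in LN319, and in A549 only the 3 double-knockdown libraries reached 1 TPM. *IL6* was 1.72 to 29.0 TPM in LN229, at most 6.70 TPM in A549, 3.98 TPM in LN319 and 1.09 TPM in NCI-H23, ranges that overlap. *LIF* was 7.10 TPM or more in all 54 libraries, with medians of 172 TPM in LN229, 70.1 in NCI-H23, 48.6 in A549 and 8.39 in LN319; the ranges of A549 and NCI-H23 overlap. The lines were handled as separate experiments with different perturbations, so these differences between lines are described and were not tested.

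**Figure D1:**
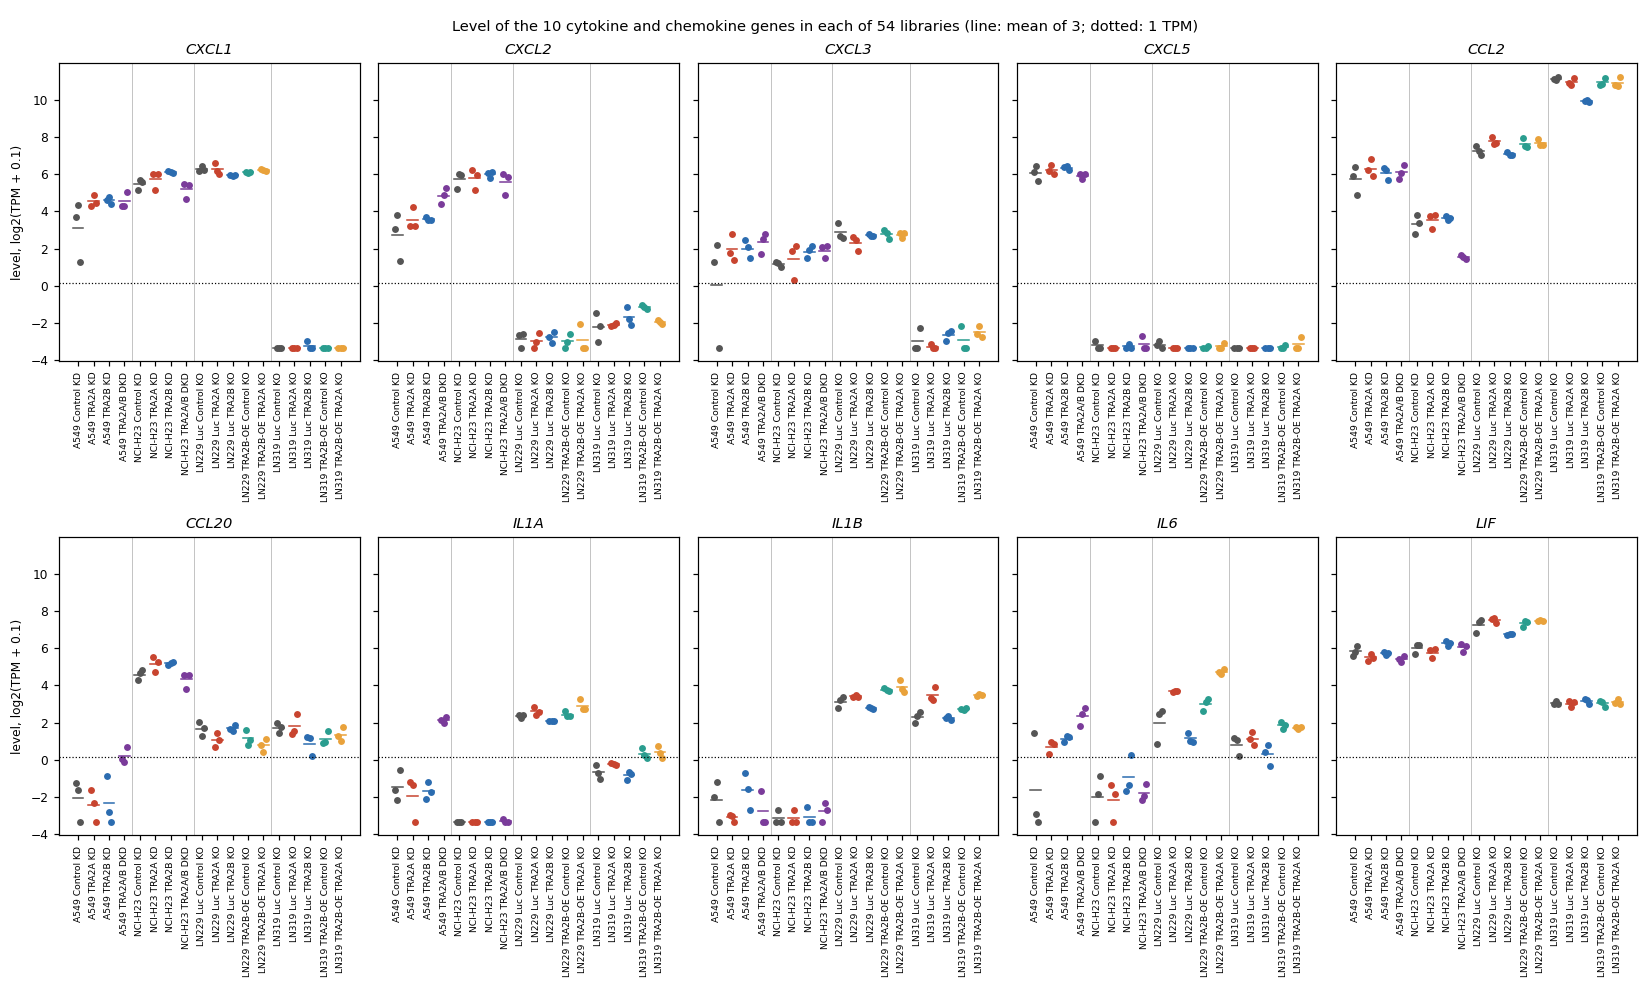
Level of each of the 10 genes, as log2(TPM + 0.1), in the 54 libraries, by group along the horizontal axis; points are libraries, short lines are means of 3 and the dotted line is 1 TPM. *CXCL5* is above the line only in the 12 A549 libraries, and *CCL2* is highest in LN319, where the TRA2B KO libraries sit below the others.

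Changes were tested with limma on log2(TPM + 0.1) for every gene that reached 1 TPM in 4 or more of a line's libraries, with p-values adjusted over every gene tested in that comparison and a threshold of 0.05. This left 7 of the 10 genes in A549 (*CCL20*, *IL1A* and *IL1B* were too low), 6 in NCI-H23 (without *CXCL5*, *IL1A*, *IL1B* and *IL6*), 8 in LN229 (without *CXCL2* and *CXCL5*) and 6 in LN319 (without *CXCL1*, *CXCL2*, *CXCL3* and *CXCL5*). Over the 14 comparisons of a perturbation with its own control, 9 of 95 tests passed (9.47%), 6 up and 3 down, against 10.8% of 249266 tests over all genes, so these genes passed about as often as any other. The 9 calls were *CXCL2*, *IL6* and *LIF* in the A549 double knockdown, *CCL2* in the NCI-H23 double knockdown and in LN319 TRA2B KO, *IL6* after *TRA2A* knockout in LN229 with luciferase and with *TRA2B*, and *IL1B* after *TRA2A* knockout in LN319 with luciferase and with *TRA2B*. Comparisons within a line that use the same control libraries are not independent of each other.

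**Figure D2:**
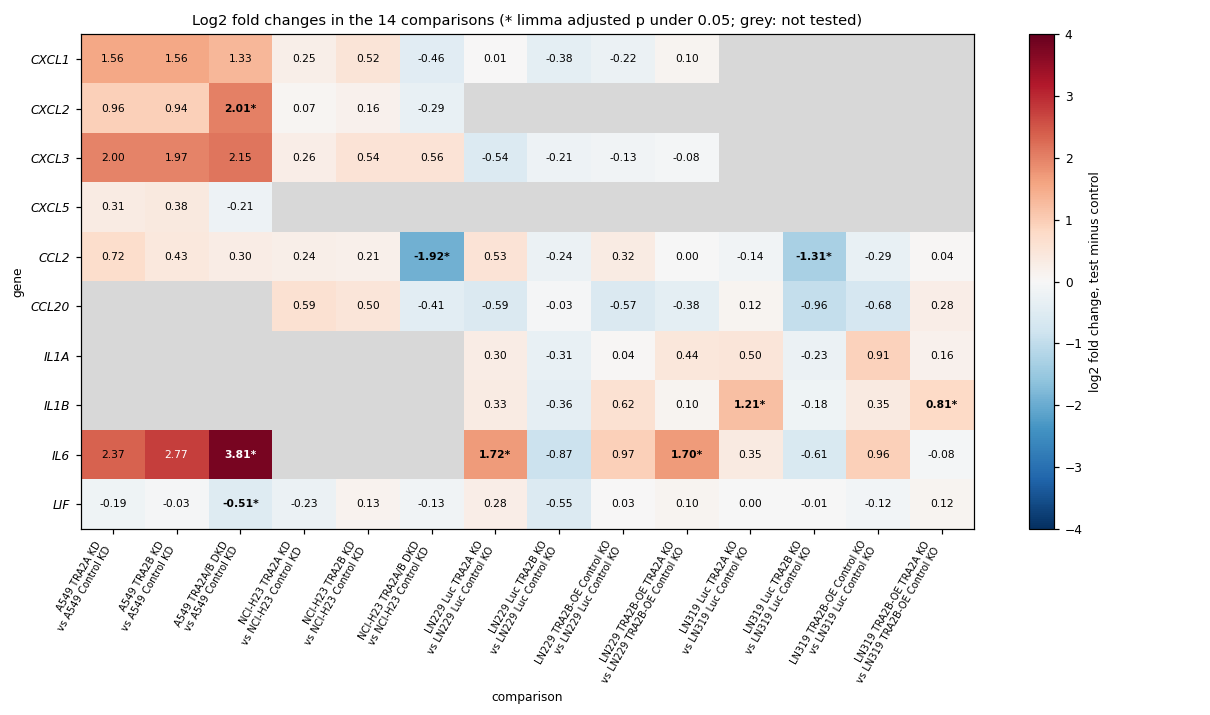
Log2 fold change (test minus control) of each gene in the 14 comparisons, by colour and printed value; asterisks mark limma adjusted p under 0.05 and grey cells were not tested. The 9 marked cells fall in 7 comparisons, and no gene is marked in a single knockdown of either lung line. The LN319 cells of *IL1A* are printed although it passed the filter there only through groups overexpressing *TRA2B*.

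In A549 the double knockdown raised *CXCL2* and *IL6* and lowered *LIF*. This was 3 of the 7 genes tested (2 up, 1 down, 3 at an unadjusted p under 0.05), while 30.6% of all 16405 genes passed (14.3% up, 16.3% down). The median log2 fold change of the 7 was 1.33 against 0.03 for all genes. That median was the value of *CXCL1*, which was 0.35 without Control KD replicate 3. Neither single knockdown changed any of the 7 by limma (0 calls each, 2 genes each at an unadjusted p under 0.05, *CXCL1* and *IL6* in both); 0.207% of all genes passed with TRA2A KD and 0.341% with TRA2B KD. In bulk RNA, a change in the share of cells that express a gene and a change in the RNA per cell cannot be told apart.

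*CXCL2* was 8.16, 13.97 and 2.44 TPM in the Control KD libraries, 9.27, 18.8 and 9.05 TPM with TRA2A KD, 12.98, 11.6 and 11.3 TPM with TRA2B KD and 20.6, 29.2 and 37.8 TPM in the double knockdown. All 3 double-knockdown libraries were above every other A549 library, and the means were 8.19 ± 5.77 and 29.2 ± 8.59 TPM (SD, n = 3). The log2 fold change was 2.01 (SE 0.558, limma adjusted p = 0.0192). Without Control KD replicate 3 it was 1.25 (adjusted p = 0.0118), and the call was lost without double-knockdown replicate 2 (adjusted p = 0.0529) or 3 (adjusted p = 0.0656). The call was also lost when only the groups compared were fitted (adjusted p = 0.0867). Its neighbours in the cluster did not pass. *CXCL1* was 12.9, 20.5 and 2.36 TPM in control and 19.4, 19.1 and 33.1 TPM in the double knockdown (1.33, SE 0.649, adjusted p = 0.147), and without Control KD replicate 3 the log2 difference shrank to 0.35 (adjusted p = 0.301). *CXCL3* was 2.29, 4.41 and 0 TPM against 3.19, 5.56 and 6.81 TPM (2.15, adjusted p = 0.171), again with overlapping groups, and 0.47 (adjusted p = 0.450) without that control. Without Control KD replicate 2 instead, both *CXCL1* (1.99, adjusted p = 0.0312) and *CXCL3* (3.21, adjusted p = 0.0436) passed, so these 2 genes turn on which control library is kept. *CXCL5*, a chemokine of the same receptor, was 69.1, 85.7 and 48.9 TPM in control and 63.3, 53.95 and 64.2 TPM in the double knockdown (-0.21, adjusted p = 0.502), and without Control KD replicate 3 it was lower (-0.50, adjusted p = 0.00826).

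*IL6*, an activator of STAT3, was 2.62, 0.0319 and 0 TPM in control, 1.13, 1.85 and 1.69 TPM with TRA2A KD, 1.86, 2.29 and 2.21 TPM with TRA2B KD and 3.48, 5.42 and 6.70 TPM in the double knockdown. The double-knockdown libraries were above all others, whereas the controls were split between replicate 1 and the other two, which were at or near 0. The fitted log2 fold change was 3.81 (SE 1.00, limma adjusted p = 0.0150) and depended on the pseudocount, falling to 1.85 (adjusted p = 0.00871) with a pseudocount of 1 TPM. It lost its call without double-knockdown replicate 3 (adjusted p = 0.0524) and when only the groups compared were fitted (adjusted p = 0.0900). The call held without Control KD replicate 3. Without Control KD replicate 1, the control with *IL6* above 1 TPM, both single knockdowns passed as well (3.93 for TRA2A KD, adjusted p = 0.00778, and 4.32 for TRA2B KD, adjusted p = 0.00214). *LIF*, the other gp130 cytokine, moved the opposite way: 47.9, 56.4 and 68.8 TPM in control (57.7 ± 10.5) and 42.7, 38.0 and 47.1 TPM in the double knockdown (42.6 ± 4.55), with no overlap. It fell by 0.51 on the log2 scale (SE 0.105, adjusted p = 0.00422) and held without each of the 6 libraries in turn. *CCL2* was 60.2, 82.2 and 29.8 TPM against 52.8, 66.7 and 91.3 TPM (0.30, adjusted p = 0.611), with overlapping groups, and the sign turned without Control KD replicate 3 (-0.19, adjusted p = 0.644).

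*IL1A*, the IL-1 form that is active without processing, was under the filter in A549 because it was high in 1 group alone. It was 0.231, 0.123 and 0.591 TPM in control, 0.335, 0.296 and 0 TPM with TRA2A KD, 0.137, 0.341 and 0.207 TPM with TRA2B KD and 4.33, 3.85 and 4.76 TPM in the double knockdown. The double-knockdown mean was 13.7 times the control mean, and the groups did not overlap (two-sided exact permutation test, p = 0.1, the smallest that 3 against 3 libraries allow). When the filter was dropped, the fitted log2 difference was 3.48 (SE 0.673), and the double knockdown exceeded the sum of both single knockdowns by 4.01. The gene was below 1 TPM in every other group, so no adjusted p is given for it. *CCL20* was 0.320, 0.228 and 0 TPM in control and 0.930, 0.839 and 1.54 TPM in the double knockdown, above every control, and *IL1B* was at most 0.334 TPM in both groups. The 6 leukocyte markers summed to 3.98 to 7.03 TPM in control and 14.9 to 21.2 TPM in the double knockdown, of which *ITGAM* made 4.28, 4.43 and 1.74 TPM against 16.1, 13.96 and 20.02 TPM and *CD14* made 1.37, 2.25 and 2.20 TPM against 0.602, 0.586 and 0.960 TPM. *CD3E* was at 0 in all 12 A549 libraries, and *PTPRC* (at most 0.386 TPM) and *LYZ* (at most 0.155 TPM) were low. The 6 epithelial markers summed to 9074 to 9295 TPM in control and 7803 to 7906 TPM in the double knockdown, and the part of either marker list in these results was not tested.

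In the single knockdowns of A549 most of these genes were level with or above control without passing. *CXCL1* was 19.7, 29.2 and 21.4 TPM with TRA2A KD and 24.7, 26.7 and 21.1 TPM with TRA2B KD, a log2 difference of 1.56 in both (SE 0.649; limma adjusted p = 0.428 and 0.356), and without Control KD replicate 3 it was 0.56 in both. *CXCL3* was 3.29, 6.66 and 2.49 TPM and 5.32, 4.14 and 2.68 TPM, and *CXCL5* was 72.0, 89.1 and 63.8 TPM and 83.1, 84.9 and 74.7 TPM, all overlapping control. *CCL2* was 74.9, 110.6 and 58.5 TPM with TRA2A KD (0.72, adjusted p = 0.485) and 79.1, 75.6 and 50.5 TPM with TRA2B KD (0.43, adjusted p = 0.580), and without Control KD replicate 3 these were 0.22 (adjusted p = 0.865) and -0.07 (adjusted p = 0.963). *LIF* was 39.7, 52.3 and 44.6 TPM with TRA2A KD (-0.19, adjusted p = 0.488) and 55.6, 49.2 and 52.8 TPM with TRA2B KD (-0.03, adjusted p = 0.891), also overlapping control.

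In NCI-H23, *CCL2* fell in the double knockdown and no other of these genes changed against control. This was 1 of 6 genes (1 at an unadjusted p under 0.05), where 43.2% of all 16293 genes passed (23.2% down), and the median of the 6 was -0.35 against 0.02 for all genes. *CCL2* was 6.73, 13.9 and 10.1 TPM in control (10.3 ± 3.61), 13.6, 8.32 and 13.6 TPM with TRA2A KD, 13.3, 11.6 and 12.2 TPM with TRA2B KD and 3.07, 2.79 and 2.603 TPM in the double knockdown (2.82 ± 0.235). The double-knockdown libraries lay below all others, at 27.5% of control (log2 fold change -1.92, SE 0.229, limma adjusted p = 6.7e-05), and the call held without each library in turn. The leukocyte markers summed to 7.05 to 17.9 TPM in control and 6.60 to 6.91 TPM in the double knockdown, the epithelial markers to 1910 to 1976 TPM and 1374 to 1608 TPM, and their part in this result was not tested.

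*CXCL1* was 35.3, 52.2 and 48.4 TPM in control and 43.5, 25.5 and 42.9 TPM in the double knockdown (-0.46, adjusted p = 0.128), with 72.9, 69.4 and 65.7 TPM in TRA2B KD above every control (0.52, adjusted p = 0.451). *CCL20* was 19.5, 24.9 and 27.9 TPM in control, 45.8, 26.1 and 37.9 TPM with TRA2A KD, 34.3, 37.2 and 38.0 TPM with TRA2B KD and 23.7, 14.1 and 23.6 TPM in the double knockdown (-0.41, adjusted p = 0.134). Both chemokines thus had higher means than control in each single knockdown and a lower mean in the double knockdown, none of which passed alone (0 calls in each single knockdown by limma, with 1 gene in TRA2A KD and 2 in TRA2B KD at an unadjusted p under 0.05; 0.976% and 0.196% of all genes passed). The non-additive term is the double-knockdown change less the sum of the changes in both single knockdowns. It does not test whether the single knockdowns rose or the double knockdown fell. It passed for *CXCL1* (-1.22, SE 0.319, adjusted p = 0.0202), *CCL2* (-2.37, SE 0.324, adjusted p = 6.1e-04) and *CCL20* (-1.50, SE 0.294, adjusted p = 0.00485), 3 of 6 genes where 21.0% of all genes passed (12.8% down), and each held without any 1 of the 12 libraries. In A549 the same term passed for 0 of 7 genes by limma (1 at an unadjusted p under 0.05, *CXCL5* at -0.90, adjusted p = 0.0770; 14.7% of all genes passed). Leaving out any 1 A549 control library gave 1 call: *IL6* without Control KD replicate 1 (-2.88, adjusted p = 0.00970), and *CXCL5* without replicate 2 (-1.12, adjusted p = 0.0213) or 3 (-0.58, adjusted p = 0.0295).

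*CXCL2* in NCI-H23 was 36.7, 63.4 and 62.9 TPM in control and 64.7, 29.7 and 57.6 TPM in the double knockdown (-0.29, adjusted p = 0.479). *CXCL3* was 2.28, 2.27 and 1.95 TPM against 4.06, 2.70 and 4.24 TPM, above control in all 3 libraries without passing (0.56, adjusted p = 0.287). *LIF* was 51.2, 73.3 and 72.2 TPM against 74.9, 54.7 and 70.1 TPM, with overlapping groups and a log2 difference whose sign changed with the scaling (-0.13, or 0.03 on TPM as deposited and 0.01 after quantile normalization). The libraries with the highest mitochondrial share, Control KD replicate 1 (31.9%), TRA2A KD replicate 2 (33.4%) and double-knockdown replicate 2 (28.3%), held the 3 lowest values of *CXCL1*, *CXCL2* and *LIF* in this line. These libraries are spread over 3 groups, and their part in the overlaps was not tested.

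**Figure D3:**
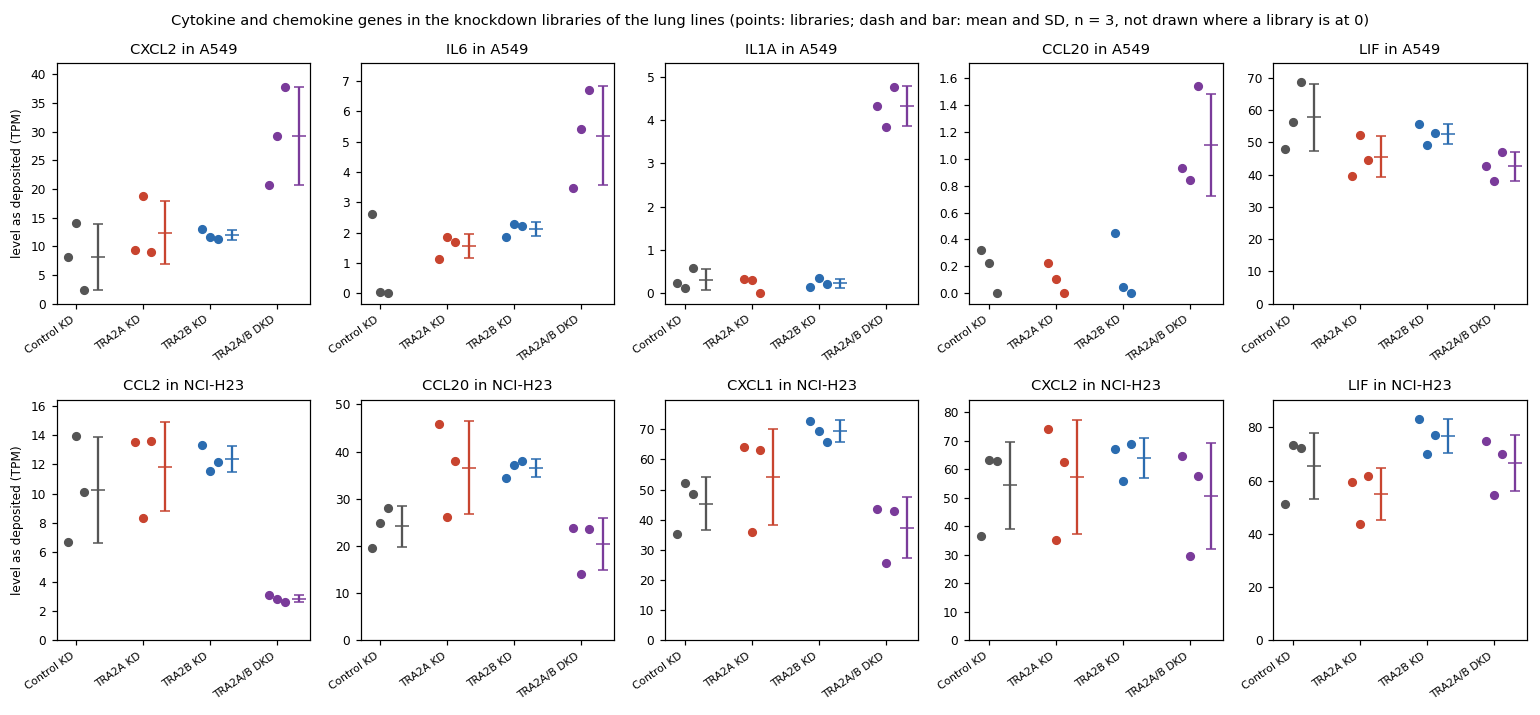
Level as deposited (TPM) in the 4 knockdown groups of A549 (top, *CXCL2*, *IL6*, *IL1A*, *CCL20*, *LIF*) and NCI-H23 (bottom, *CCL2*, *CCL20*, *CXCL1*, *CXCL2*, *LIF*); points are libraries, and the dash and bar are mean and SD (n = 3), left out where a library is at 0. *CXCL2* (20.6 to 37.8 TPM) and *IL1A* (3.85 to 4.76 TPM) are highest in the A549 double knockdown, and *CCL2* (2.603 to 3.07 TPM) is lowest in the NCI-H23 double knockdown.

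In LN229, *IL6* rose after *TRA2A* knockout, both with luciferase and with *TRA2B* overexpression. It was the 1 call among 8 genes in either comparison (3 and 2 genes at an unadjusted p under 0.05), where 3.79% and 6.05% of all 18490 genes passed (1.96% and 2.17% up). *IL6* was 1.72, 5.45 and 5.97 TPM in Luc Control KO, 12.4, 12.7 and 12.99 TPM in Luc TRA2A KO and 2.66, 1.94 and 1.88 TPM in Luc TRA2B KO. It was 6.03, 8.58 and 9.38 TPM in TRA2B-OE Control KO and 26.0, 24.3 and 29.0 TPM in TRA2B-OE TRA2A KO, the highest *IL6* values of the series. Each *TRA2A* knockout lay wholly above its own control (12.7 ± 0.294 against 4.38 ± 2.32 TPM with luciferase, 26.4 ± 2.40 against 7.997 ± 1.75 TPM with *TRA2B*). The log2 fold changes were 1.72 (SE 0.360, limma adjusted p = 0.0261) and 1.70 (SE 0.360, adjusted p = 0.0192), and the difference between them was -0.02 (SE 0.510, adjusted p = 0.9996). With 1 library left out at a time that difference ran from -0.32 to 0.55, so the rises are not shown to be equal. Both calls were near the threshold: without the Luc TRA2A KO libraries in turn the adjusted p was 0.0526 to 0.114, and in the *TRA2B* background it rose above 0.05 without control replicate 1 or 2 and without knockout replicate 2 or 3 (0.0509 to 0.0689). With luciferase the log2 fold change ran from 1.15 to 2.01 with 1 library left out at a time. The luciferase call was also lost when only the groups compared were fitted (limma adjusted p = 0.208). The epithelial markers also summed higher after both *TRA2A* knockouts without overlap (142.5 to 205.9 against 229.8 to 239.6 TPM, and 196.4 to 234.5 against 267.7 to 297.2 TPM), with *KRT7* called up and the glial marker *SOX2* called down in both and *NES* called down in the second, and their part in the rise of *IL6* was not tested.

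No gene passed in LN229 after *TRA2B* knockout by limma (0 of 8, with 4 at an unadjusted p under 0.05, all lower; 0.557% of all genes passed). *LIF* was 114, 172 and 183 TPM in Luc Control KO and 106, 109 and 109.9 TPM in Luc TRA2B KO, below every control (-0.55, adjusted p = 0.0841). *CXCL1* was 71.8, 85.8 and 74.6 TPM against 62.2, 59.4 and 62.9 TPM, again below every control (-0.38, adjusted p = 0.106), and *IL6* (-0.87, adjusted p = 0.180) and *IL1B* (-0.36, adjusted p = 0.193) overlapped control. All 4 passed without Luc Control KO replicate 1: *LIF* at -0.77 (adjusted p = 0.00139), *IL6* at -1.43 (adjusted p = 0.00192), *IL1B* at -0.54 (adjusted p = 0.0198) and *CXCL1* at -0.43 (adjusted p = 0.0320). That library held the lowest *CXCL1*, *IL6*, *IL1B* and *LIF* values of its group.

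*CCL2* in LN229 was 186, 149 and 129.9 TPM in Luc Control KO and 258, 196 and 207 TPM in Luc TRA2A KO, above every control without passing (0.53, adjusted p = 0.0715). *IL1B*, made as a precursor that caspase-1 cleaves, was 6.69, 9.07 and 10.2 TPM in Luc Control KO and 14.6, 13.3 and 12.9 TPM in TRA2B-OE Control KO, also above every control without passing (0.62, adjusted p = 0.0812). *IL1A* was 5.99, 4.97 and 5.01 TPM in TRA2B-OE Control KO and 9.53, 6.51 and 6.54 TPM in TRA2B-OE TRA2A KO (0.44, adjusted p = 0.0988), with no overlap. *TRA2B* overexpression alone gave 0 calls among the 8 genes by limma (2 at an unadjusted p under 0.05, *IL1B* and *IL6*; 1.03% of all genes passed), and the test of whether it altered the *TRA2A* knockout gave 0 calls (1 at an unadjusted p under 0.05, *CCL2*) among the 8 and 0 among all 18490 genes.

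The lower chemokines of LN229, *CXCL3* and *CCL20*, did not pass in Luc TRA2A KO. *CXCL3* was 10.3, 6.20 and 5.85 TPM in Luc Control KO and 6.04, 5.31 and 3.59 TPM in Luc TRA2A KO (-0.54, limma adjusted p = 0.187), with overlap. *CCL20* was 3.997, 2.36 and 3.15 TPM in Luc Control KO and 1.54, 2.61 and 1.99 TPM in Luc TRA2A KO (-0.59, adjusted p = 0.242), again with overlap. *LIF*, the most abundant of the 10 genes here beside *CCL2*, was 188, 199.7 and 164 TPM in Luc TRA2A KO (0.28, adjusted p = 0.299) and 174 to 182 TPM in TRA2B-OE TRA2A KO (0.10, adjusted p = 0.751), where its control was 140.1, 178 and 168 TPM. *IL1A* in Luc TRA2A KO was 7.19, 5.27 and 5.91 TPM against 5.23, 4.59 and 5.13 TPM, above every control by a small margin (0.30, adjusted p = 0.257).

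In LN319, *IL1B* rose after *TRA2A* knockout and *CCL2* fell after *TRA2B* knockout. *IL1B* was 3.88, 4.95 and 5.93 TPM in Luc Control KO (4.92 ± 1.03), 9.84, 9.21 and 14.8 TPM in Luc TRA2A KO (11.3 ± 3.08) and 4.60, 5.01 and 4.23 TPM in Luc TRA2B KO. The rise of 1.21 on the log2 scale (SE 0.186, limma adjusted p = 0.00129) left no overlap and held without each of the 6 libraries in turn; it was the 1 call among 6 genes (1 at an unadjusted p under 0.05), where 14.3% of all 19303 genes passed (6.82% up). With *TRA2B* overexpressed, *IL1B* was 6.61, 6.34 and 6.86 TPM in control (6.60 ± 0.263) and 10.7, 11.7 and 11.1 TPM after *TRA2A* knockout (11.2 ± 0.516), also without overlap. That rise of 0.81 (SE 0.186, adjusted p = 0.0400) was the 1 call among 6 (2.77% of all genes passed, 1.48% up) and was lost without any 1 of the 6 libraries (adjusted p 0.0825 to 0.109). The difference between the rises was -0.40 (SE 0.264, adjusted p = 0.767), and this test gave 0 calls among the 6 genes by limma (0 at an unadjusted p under 0.05; 0.0207% of all genes passed).

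*CCL2*, the most abundant of the 10 genes in this line, was 2223, 2098 and 2419 TPM in Luc Control KO (2246 ± 162) and 965, 1022 and 940.4 TPM in Luc TRA2B KO (976 ± 42.0). The knockout libraries lay at 43.4% of control with no overlap (log2 fold change -1.31, SE 0.164, limma adjusted p = 9.3e-05), and the call held without each library in turn. Luc TRA2A KO, by contrast, had 1907, 1798 and 2258 TPM, overlapping control (-0.14, adjusted p = 0.632), and both *TRA2B*-overexpressing groups lay between 1707 and 2378 TPM. *CCL2* was the 1 call among 6 genes after *TRA2B* knockout (2 at an unadjusted p under 0.05), where 42.6% of all genes passed (24.0% down). *CCL20* was 3.85, 2.62 and 3.33 TPM in control and 2.27, 2.18 and 1.04 TPM after *TRA2B* knockout, below every control and just short of the threshold (-0.96, SE 0.367, adjusted p = 0.0503). The mitochondrial share was 12.1% to 12.8% in Luc Control KO and 18.3% to 20.6% in Luc TRA2B KO, and the epithelial markers summed to 357 to 366.4 TPM against 291 to 306.2 TPM; the part of either in the fall of *CCL2* was not tested.

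*IL6* in LN319 was 2.13, 1.98 and 1.08 TPM in Luc Control KO and 2.04, 2.71 and 1.63 TPM in Luc TRA2A KO, overlapping and not passing (0.35, SE 0.292, adjusted p = 0.492); whether it differs from the rise in LN229 was not tested. *TRA2B* overexpression put *IL6* at 3.98, 3.07 and 3.56 TPM (0.96, limma adjusted p = 0.0782), above every control without passing. *IL1A* was 1.44, 1.08 and 0.953 TPM with *TRA2B* overexpressed against 0.712, 0.506 and 0.397 TPM, but it reached 1 TPM in 4 of 15 libraries, all of them overexpressing *TRA2B*, so it passed the filter through the groups in which it was high and its test is not given. That comparison gave 0 calls among the 6 genes by limma, where 4.31% of all genes passed. With *IL1A* left aside, *IL6* was the only gene at an unadjusted p under 0.05. *LIF* stayed between 7.10 and 9.58 TPM in all 15 libraries of this line.

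**Figure D4:**
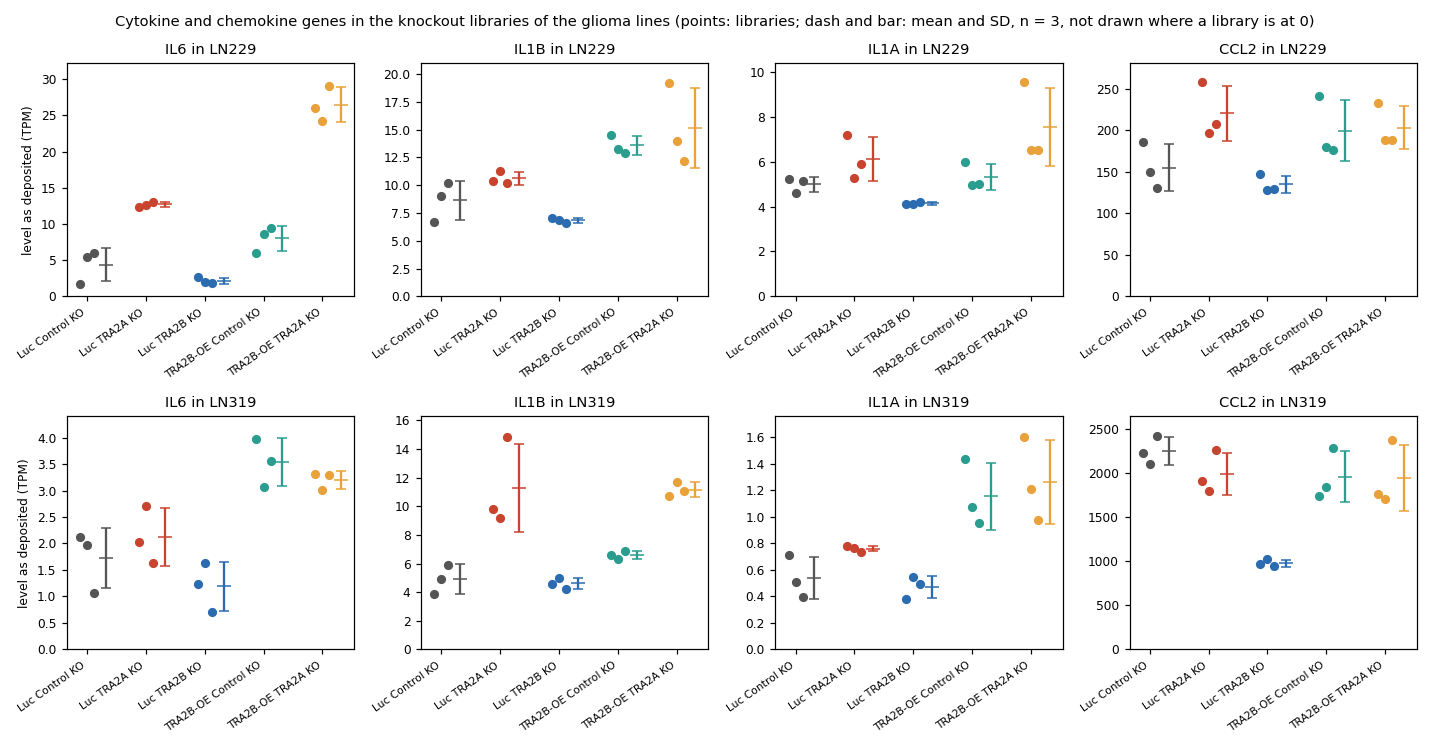
Level as deposited (TPM) of *IL6*, *IL1B*, *IL1A* and *CCL2* in the 5 groups of LN229 (top) and LN319 (bottom); points are libraries, and the dash and bar are mean and SD (n = 3). *IL6* is highest in LN229 TRA2B-OE TRA2A KO (24.3 to 29.0 TPM), *IL1B* is high in both *TRA2A* knockouts of LN319, and *CCL2* is lowest in LN319 Luc TRA2B KO (940.4 to 1022 TPM).

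Genes around these cytokines were read from 6 lists of their pathways, from other chemokines to receptors and intracellular signalling. Of the NF-kB subunits and feedback genes, which include the factors that drive these cytokines and the inhibitors that limit them, 8 of 17 tested rose and 3 fell in the A549 double knockdown (median 0.65 against 0.03 for all genes, of which 30.6% passed, 14.3% up and 16.3% down). In the NCI-H23 double knockdown 1 of 18 rose and 8 fell (median -0.26 against 0.02 for all genes, of which 43.2% passed, 23.2% down). *TNFAIP3*, the ubiquitin-editing enzyme A20 that restrains NF-kB, was 5.25, 5.24 and 3.55 TPM in A549 control and 32.9, 35.9 and 27.6 TPM in the double knockdown (2.69, SE 0.275, limma adjusted p = 4.6e-05). In NCI-H23 it was 48.4, 70.5 and 70.0 TPM in control and 25.7, 18.6 and 27.5 TPM in the double knockdown (-1.55, adjusted p = 8.3e-06), with no overlap in either line, and the difference between the lines was not tested. *TRAF1*, a receptor adaptor, rose in A549 from a mean of 4.69 to 31.1 TPM (2.63, adjusted p = 1.4e-06) and was 0.07 in NCI-H23 (adjusted p = 0.674), and *NFKB2*, the p100 subunit, rose by 1.44 in A549 (adjusted p = 1.5e-04) and fell by 0.65 in NCI-H23 (adjusted p = 0.00205). In LN319 TRA2B KO, 2 of 17 rose and 6 fell (median -0.06; 42.6% of all genes passed). In the *TRA2A* knockouts the calls were 2 up and 1 down of 18 in LN229 with luciferase (3.79% of all genes passed) and 3 up of 18 with *TRA2B* (6.05%, 2.17% up), and 2 up and 1 down of 17 in LN319 with luciferase (14.3%) and 1 up of 17 with *TRA2B* (2.77%).

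**Figure D5:**
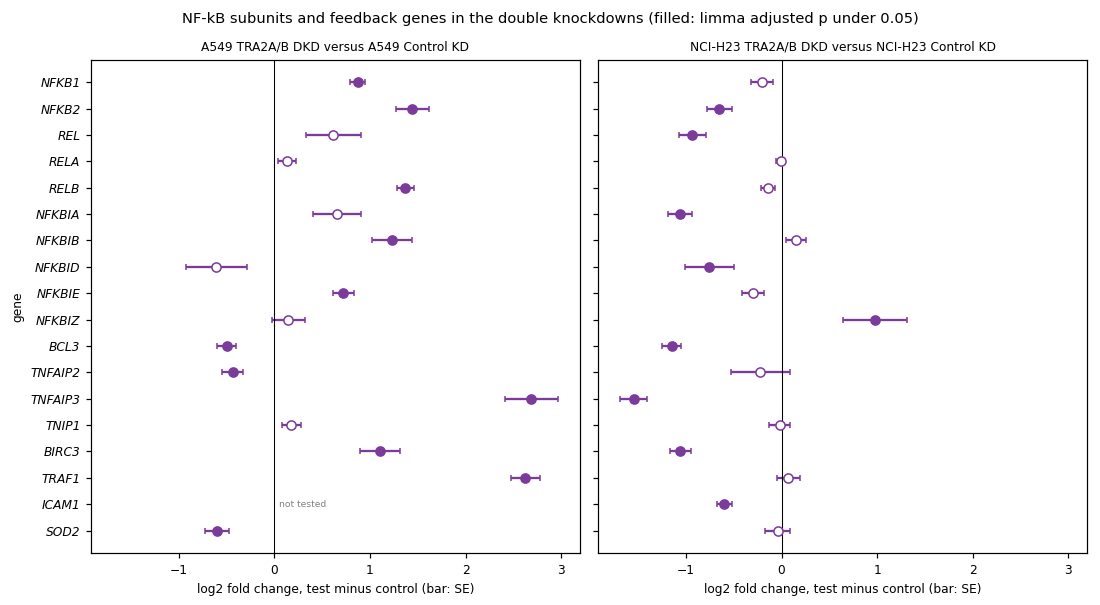
Log2 fold change (double knockdown minus Control KD, bar: SE) of the NF-kB subunits and feedback genes in A549 (left) and NCI-H23 (right); filled points have limma adjusted p under 0.05. In A549 8 of 17 genes rose and 3 fell; in NCI-H23 1 of 18 rose and 8 fell.

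Among the other chemokines and cytokines, 3 of 8 tested rose and 2 fell in the A549 double knockdown (30.6% of all genes passed), 1 rose and 0 fell of 8 in NCI-H23 (43.2%), and 3 rose and 5 fell of 15 in LN319 TRA2B KO (42.6%). *CXCL8*, a major neutrophil chemokine and a member of the same chromosome 4 cluster, was 7.48, 8.24 and 8.05 TPM in A549 control and 31.99, 31.4 and 40.5 TPM in the double knockdown (2.03, SE 0.157, limma adjusted p = 7.3e-06). It shares no 31-base word with *CXCL1*, *CXCL2*, *CXCL3* or *CXCL5*. *TNFSF15*, a TNF-family ligand, fell in the A549 double knockdown from 1.72 to 0.145 TPM (-2.89, adjusted p = 0.00527), and *IL32*, a cytokine of activated lymphoid and epithelial cells, fell with TRA2A KD in A549 from 40.7, 47.4 and 30.4 TPM to 6.99, 7.71 and 4.47 TPM (-2.48, adjusted p = 0.00146). Over all 14 comparisons 13 of 156 tests of this list passed upward and 17 downward (19.2%, against 10.8% of tests over all genes).

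Receptors and decoys passed in 13 of 91 tests (6 up, 7 down; 14.3%, against 10.8% over all genes). *IL1R1*, the receptor of *IL1A* and *IL1B*, rose in LN319 TRA2B KO from 1.54 to 3.90 TPM (1.17, limma adjusted p = 5.2e-04), *OSMR* fell in the NCI-H23 double knockdown from 44.6 to 26.2 TPM (-0.93, adjusted p = 1.3e-05) and *LIFR* rose in the A549 double knockdown (0.84, adjusted p = 0.0472). In the IL-1 and TLR list, 7 of 15 rose and 2 fell in the A549 double knockdown and 3 of 14 rose and 1 fell in NCI-H23, where 30.6% and 43.2% of all genes passed; *TLR3*, a sensor of double-stranded RNA, rose by 1.90 in A549 (adjusted p = 0.00917), *TRAF6* by 1.23 in A549 (adjusted p = 1.0e-04) and the kinase *IRAK4* by 1.24 in NCI-H23 (adjusted p = 7.0e-05). In the IL-6 and LIF list, 2 of 10 rose and 3 fell in the A549 double knockdown (30.6% of all genes passed). *CEBPB*, a transcription factor first known for binding the *IL6* gene, rose in A549 from 41.2 to 172 TPM (2.01, adjusted p = 6.1e-05) and *SOCS3*, the feedback inhibitor of gp130, rose by 1.61 (adjusted p = 1.1e-04). Of 12 regulators of AU-rich mRNA decay, 1 rose and 4 fell in the A549 double knockdown and 3 rose and 4 fell in NCI-H23 (30.6% and 43.2% of all genes passed): *HNRNPD* (AUF1) fell in NCI-H23 from 279 to 116 TPM (-1.43, adjusted p = 4.5e-08), *ZFP36* (tristetraprolin) rose in A549 (1.04, adjusted p = 0.0147) and *RC3H1* (Roquin-1) rose in NCI-H23 (1.01, adjusted p = 0.0260).

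The genes most like each member were found by Pearson correlation of log2 levels, taken relative to the mean of each line's control group, over the lines in which the member passed the filter; libraries share a line and its controls, and the values are descriptions. *CXCL1* was most like *COX8A* (r = 0.957) and *COX6A1* (0.955) over 39 libraries, and *CXCL3* most like *ACOT1* (0.948) and *P4HTM* (0.941), but without A549 Control KD replicate 3, a choice made after the data were seen, these fell to 0.799, 0.787, 0.672 and 0.686. *CXCL2* was most like *SAT1* (0.952, then 0.888) and *GPR3* (0.940, then 0.822) over 24 libraries. *CCL2* was most like *GPX4* (0.912, then 0.895) and *CIB1* (0.895, then 0.865) over 54 libraries, and *CCL20* most like *OTUB1* (0.851) and *CD59* (0.823) over 42. *IL1A* was most like *CHKA* (0.889) and *GAS6* (0.875), and *IL1B* most like *SYBU* (0.917) and *FAM105A* (0.910), over the 30 glioma libraries. For *IL1A* this includes LN319, where it passed the filter only through the groups overexpressing *TRA2B*. *IL6* was most like *ZFAS1* (0.849, then 0.764) and *TPRA1* (0.838, then 0.755) over 42 libraries, and *LIF* most like *STX1A* (0.782, then 0.772) and *CLCF1* (0.768, then 0.826), itself a gp130 cytokine, over 54. Without that library *SAT1*, *GPX4*, *CIB1* and *CLCF1* kept a place among the 2 most alike, whereas *COX8A* (rank 6), *COX6A1* (7), *ACOT1* (41), *P4HTM* (26), *GPR3* (18), *ZFAS1* (8), *TPRA1* (13) and *STX1A* (6) did not. All these values pool lines and need not hold in each. Within single lines *LIF* ran from 0.155 to 0.930 with *STX1A* and from 0.342 to 0.955 with *CLCF1*. *CCL2* ran from 0.527 to 0.941 with *GPX4*, and *IL1B* from 0.907 to 0.934 with *SYBU*.

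Among themselves the members moved together only in places, and the pairs named here were chosen after their values were seen. In A549 *CXCL1* and *CXCL3* correlated at 0.968 over 12 libraries and *CXCL1* and *CXCL2* at 0.821, but without Control KD replicate 3 these were 0.663 and 0.314, while *CXCL5* and *LIF* went from 0.397 to 0.884. In NCI-H23 *CXCL1* correlated with *CCL20* at 0.921 and with *CXCL2* at 0.841 over 12 libraries. In LN229, over 15 libraries, *IL6* correlated with *IL1B* at 0.855 and with *LIF* at 0.808, and with *CCL20* at -0.792. In LN319 *IL1A* and *IL6* correlated at 0.857 over 15 libraries. Both genes were higher in the *TRA2B*-overexpressing groups of that line, and *IL1A* passed the filter only through those groups. This value cannot be told apart from that split between groups.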

How the data were processed

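Polyadenylated RNA of 54 libraries was sequenced paired-end from directional libraries. The authors deposited 1 table of TPM per cell line, made with kallisto 0.48.0 on the Gencode v34 annotation (GRCh38), and their processing notes also name STAR 2.7.3. TPM keeps no read counts, so depth and counting error are unknown. Groups were taken from the sample labels. Within each line, TPM was rescaled by trimmed means (30% of ratios and 5% of levels trimmed), transformed as log2(TPM + 0.1) after a filter of 1 TPM in at least 4 libraries, and fitted over all groups of the line with limma 3.58.1 (R 4.3.3), with Benjamini-Hochberg adjustment over all genes and a threshold of 0.05. The authors had used a count-based fit, which TPM does not allow. The fit was tested on simulated data. Over all genes, same-numbered replicates deviated together little or not at all (r -0.154 to 0.212 over 42 pairs, 4 of them over 0.1), so replicates were not paired. Single genes could still follow the replicate number: *CCL2* was highest in replicate 1 in every LN229 group. Named genes were the 10 members, *TRA2A* and *TRA2B*, the 3 largest called changes of each list and the 2 genes most like each member found in at least 2 lines, except that 1 list gene and 1 marker are not reported here; cell type markers, member pairs and *ITGAM* were named beside these. The members and lists were chosen with earlier results of these data known. Promoters came from RefSeq (GRCh38.p14), and untranslated regions from Gencode transcripts. Alternatives were other pseudocounts, filters, scalings, a minimum log2 fold change of 1, fits of the compared groups alone, replicate block and leaving out each replicate. Figures were drawn with matplotlib 3.10.9.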

Additional observations from a re-analysis of the deposited data

Results flagged for a closer look

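In NCI-H23, 3 chemokine genes had a double-knockdown change that differed from the sum of the changes in both single knockdowns by the test of the difference itself, fitted with limma. The difference on the log2 scale was -1.22 for *CXCL1* (adjusted p = 0.0202), -2.37 for *CCL2* (adjusted p = 6.1e-04) and -1.50 for *CCL20* (adjusted p = 0.00485), and the cause was not tested. No gene was searched for an outlying library within a group, since groups of 3 are not tested in that way.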

How the results depend on the processing

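No result changed direction past the threshold under any alternative. Of the calls by list, requiring a log2 fold change of 1 left 6 in IL-1 and TLR signalling, 4 in IL-6 and LIF signalling, 13 in NF-kB genes, 11 in other chemokines, 1 in receptors and 4 in AU-rich decay, and fitting only the groups compared left 16 in IL-1 and TLR signalling, 18 in other chemokines and 8 in receptors. Fitting only the groups compared left 1 of the 10 genes called in the A549 double knockdown, 0 in LN229 Luc TRA2A KO and 0 in LN319 TRA2B-OE TRA2A KO. The gene left in A549 was *LIF*, and both upward calls, *CXCL2* and *IL6*, were lost. No filter on low values gave 0 in both LN229 *TRA2A* knockouts, 0 in LN319 TRA2B-OE TRA2A KO and 1 in the A549 non-additive term. That 1 was *IL1A*, which the filter leaves out in A549. Quantile normalization gave 3 in LN319 Luc TRA2B KO, and a minimum log2 fold change of 1 gave 0 in LN319 TRA2B-OE TRA2A KO. With the replicate block, although over all genes the numbers did not pair the libraries, 2 genes were called in LN229 Luc TRA2A KO, 1 in LN229 Luc TRA2B KO, 1 in LN229 TRA2B-OE Control KO, 2 in LN229 TRA2B-OE TRA2A KO and 1 in LN319 TRA2B-OE Control KO. Of 122 gene results 117 kept their side of the threshold under the block and 5 gained a call. These were *CCL2* in LN229 Luc TRA2A KO (limma adjusted p = 0.00245) and in LN229 TRA2B-OE Control KO (0.0466), *LIF* in LN229 Luc TRA2B KO (0.0387), *IL1A* in LN229 TRA2B-OE TRA2A KO (0.0312) and *IL6* in LN319 TRA2B-OE Control KO (0.0460). Leaving out 1 library at a time gave 0 to 1 calls in A549 TRA2A KD, 0 to 1 in A549 TRA2B KD, 1 to 5 in the A549 double knockdown, 0 to 1 in the A549 non-additive term, 0 to 1 in LN229 Luc TRA2A KO, 0 to 4 in LN229 Luc TRA2B KO, 0 to 1 in LN229 TRA2B-OE TRA2A KO, 1 to 2 in LN319 Luc TRA2B KO and 0 in LN319 TRA2B-OE TRA2A KO. On TPM as deposited the median of all genes shifted by up to 0.256 (A549 non-additive term), with no change of sign in a called gene. The cause of these changes was not tested. Genes near 1 TPM are limited by the depth, which TPM does not give.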
